A study of Nematostella vectensis with 33 samples.

Results

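Embryos of the sea anemone Nematostella vectensis that had received short hairpin RNAs (shRNAs) against NF-kB were compared with embryos that had received shRNAs against STAT. Members were chosen by their labels alone, and 8 of the 33 libraries of the series qualified: 4 with NF-kB shRNAs and 4 with STAT shRNAs. Each target had 2 hairpins (NF-kB shRNA 1 and NF-kB shRNA 2, STAT shRNA 1 and STAT shRNA 2) with 2 libraries per hairpin. The table that held them also contained 3 GFP shRNA libraries, which served as the control for both targets and entered the fit but not the contrast. Every one of these 11 libraries came from whole embryos given 2'3'-cGAMP at 100 µM for 4 h, so the table contained no untreated embryo, and a difference within it is a difference between stimulated embryos. A second embryo experiment (GFP or STING shRNAs, with and without 2'3'-cGAMP, 12 libraries) and polyps given cyclic dinucleotides at 500 µM for 24 h (10 libraries) were used only to describe the genes that differed.

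NF-kB and STAT are transcription factors that cells keep inactive until a signal arrives, NF-kB by inhibitor proteins and STAT proteins by the lack of phosphorylation. In vertebrates, STING binds 2'3'-cGAMP and, through kinases, leads to the activation of interferon regulatory factors and of NF-kB, whereas STAT proteins act one step later, below the receptors for interferons and other cytokines. Cnidarians have homologues of STING, NF-kB and STAT, and a small hairpin RNA lowers its target by guiding the RNA interference machinery to the matching messenger RNA. The gene identifiers of the table carry no product names, and the reference gave only placeholder symbols (the prefix LOC and a number). The NF-kB and STAT genes could therefore not be picked out, the depletion of either target was not analysed here, and genes are given by identifier without a function. For the same reason, markers of embryonic cell types could not be looked up. In whole embryos, fewer cells of a type and less RNA per cell cannot be told apart.

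Expression is given as the normalised counts that the authors deposited. Over the 8 compared libraries these summed to between 17.51 and 20.57 M (mega) per library. The share of genes listed at 0 was 14% in NF-kB shRNA 2 replicate 1, 10.9% in STAT shRNA 1 replicate 2 and 10.6% in NF-kB shRNA 1 replicate 2, against 5.35 to 7.8% in the remaining 5 compared libraries. Across genes, libraries of the same hairpin correlated with a Pearson's r between 0.916 and 0.956, libraries of different hairpins against one target between 0.891 and 0.947, and NF-kB with STAT libraries between 0.886 and 0.953 (genes are not independent replicates). The labels do not say whether the libraries came from separate cultures or injections. The fit has a separate mean for each hairpin. The p-values and intervals below therefore measure only the spread between libraries of the same hairpin or of GFP. The spread between hairpins against one target does not enter them and is described apart below.

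Transcript levels differed between embryos with NF-kB and with STAT shRNAs in both directions. Where the groups did not overlap and the mean reached 50, the largest differences were LOC5512948, higher with NF-kB shRNAs by 3.08 on the log2 scale, and LOC116615369, lower by a log2 difference of -3.23. Of 20058 genes tested with limma on log2(normalised count + 1), 436 were called at a Benjamini-Hochberg adjusted p below 0.05 (2.17% of those tested). With NF-kB shRNAs 185 genes were higher (0.922%) and 251 were lower (1.25%), and 2566 genes had an unadjusted p below 0.05. The lower genes reached further: 151 of them lay at a log2 difference of -1 or below and 34 at -2 or below, whereas 67 higher genes lay at 1 or above and 5 at 2 or above. The median difference was 0.858 among the higher genes (0.517 to 3.08) and -1.15 among the lower genes (-4.48 to -0.532). All 4 NF-kB libraries lay above or below all 4 STAT libraries at 376 called genes (159 higher, 217 lower). Over all tested genes this held for 1388, or 6.92%.

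Called genes had higher normalised counts, which are not divided by gene length, than the tested genes as a whole. The mean over the 8 libraries had a median of 1597 normalised counts among the higher genes and 574 among the lower genes, against 163 among all tested genes. At genes with a mean of at least 50, 418 of 14290 were called (2.93%). The count of 436 moved when single libraries were left out. It was 267 without NF-kB shRNA 1 replicate 1, 190 without NF-kB shRNA 2 replicate 1, 290 without STAT shRNA 1 replicate 1, 226 without STAT shRNA 2 replicate 1 and 177 without STAT shRNA 2 replicate 2. The 185 higher genes became 72, 65, 95 and 78 without NF-kB shRNA 1 replicate 1, NF-kB shRNA 2 replicate 1, STAT shRNA 2 replicate 1 and STAT shRNA 2 replicate 2. The 251 lower genes became 125, 158, 131 and 99 without NF-kB shRNA 2 replicate 1, STAT shRNA 1 replicate 1, STAT shRNA 2 replicate 1 and STAT shRNA 2 replicate 2, but 428 without NF-kB shRNA 2 replicate 2. Without the other 2 libraries with many genes at 0, NF-kB shRNA 1 replicate 2 and STAT shRNA 1 replicate 2, 387 and 366 genes were called.

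**Figure D1:**
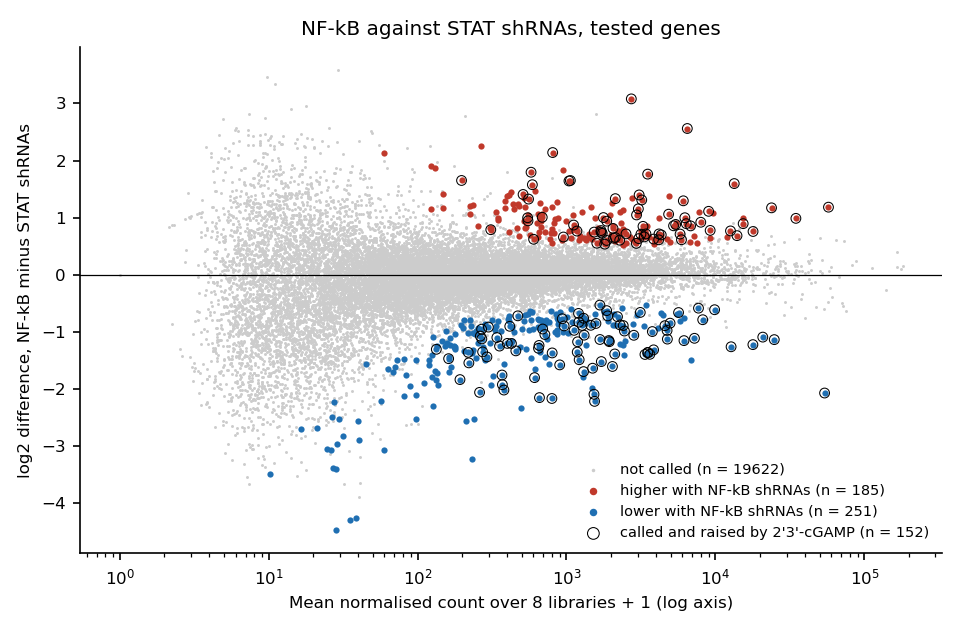
Difference between NF-kB and STAT shRNA embryos (log2, vertical axis) against the mean normalised count plus 1 over the 8 compared libraries (log axis), one point per tested gene. Coloured points are the 185 higher and 251 lower genes called by limma, black rings mark the 152 called genes that 2'3'-cGAMP raised in the other embryo experiment, and the lower genes extend to -4.48 while the higher genes end at 3.08.

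Genes higher with NF-kB shRNAs are described first, by the rule given under the processing of the data (the largest differences among called genes with a mean of at least 50 and no overlap between the 4 NF-kB and 4 STAT libraries). LOC5512948 had 3595 and 2578 normalised counts in the NF-kB shRNA 1 libraries, 6250 and 6721 with NF-kB shRNA 2, 233 and 1319 with STAT shRNA 1, and 769 and 319 with STAT shRNA 2. The lowest NF-kB library thus stood above the highest STAT library, but the STAT libraries themselves differed widely. The log2 difference was 3.08 (95% interval 2.05 to 4.1, adjusted p = 0.00312 by limma), and with robust moderation the gene was not called (adjusted p = 0.107). This gene was also raised by 2'3'-cGAMP in the GFP shRNA embryos of the other experiment, where untreated libraries had 47.9 and 77.2 and treated libraries 1069 and 1187.

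NCBI Gene 5510255 is not listed in the reference. Its libraries held 13815 and 7973 normalised counts with NF-kB shRNA 1, 9122 and 12669 with NF-kB shRNA 2, 677 and 2914 with STAT shRNA 1, and 2388 and 2224 with STAT shRNA 2. Every NF-kB library exceeded every STAT library, and the difference was 2.56 (1.81 to 3.31, adjusted p = 0.00147 by limma). LOC5515329 stood at 359, 363, 406 and 589 with the NF-kB shRNAs and at 40.8, 167, 80.4 and 106 with the STAT shRNAs (in the order shRNA 1 replicates 1 and 2, then shRNA 2 replicates 1 and 2, as for the genes that follow). Its difference was 2.25 (1.47 to 3.03, adjusted p = 0.0042). LOC116616645 had 1418, 574, 1285 and 2001 against 139, 425, 289 and 322, a difference of 2.14 (1.45 to 2.83, adjusted p = 0.00242), with NF-kB shRNA 1 replicate 2 the closest of its group to the STAT libraries.

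LOC116616329 had 204, 158, 190 and 204 normalised counts with NF-kB shRNAs and 22.7, 82.4, 87.2 and 35.6 with STAT shRNAs. LOC116616113 had 157, 227, 296 and 126 against 44, 91.5, 63.9 and 27.3. Both genes kept the groups apart, though their STAT libraries ranged widely. The differences of 1.91 (1.05 to 2.77, adjusted p = 0.0215 by limma) and 1.87 (1.01 to 2.73, adjusted p = 0.0245) depended on the libraries used. Without NF-kB shRNA 1 replicate 1 or 2, NF-kB shRNA 2 replicate 1, STAT shRNA 1 replicate 1 or STAT shRNA 2 replicate 2, neither was called (adjusted p up to 0.119 and 0.14).

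LOC5511697 had 1325, 875, 2027 and 1721 normalised counts with NF-kB shRNAs against 330, 543, 323 and 430 with STAT shRNAs (difference 1.83, 1.42 to 2.25, adjusted p = 0.000322 by limma). NCBI Gene 116616104 had 954, 719, 881 and 1033 against 208, 264, 262 and 297 (1.80, 1.4 to 2.19, adjusted p = 0.000272), with no library of either group far from its own mean of 897 ± 134 (SD, n = 4) or 258 ± 36.9 (SD, n = 4). LOC5511360 had 5163, 3558, 5567 and 7323 against 950, 2171, 1571 and 1743 (1.76, adjusted p = 0.00142). LOC5512977 ranged from 1132 to 1946 against 388 to 595 (1.65, adjusted p = 0.00147), LOC5502860 from 770 to 2239 against 259 to 666 (1.64, adjusted p = 0.00573) and LOC5502520 from 136 to 386 against 65.7 to 122 (1.65, adjusted p = 0.00478). In 10 of these 12 higher genes NF-kB shRNA 1 replicate 2 was the lowest NF-kB library. Over all 185 higher genes this library was the lowest of its group at 144 (77.8%), and NF-kB shRNA 2 replicate 1 was the highest at 98 (53%).

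**Figure D2:**
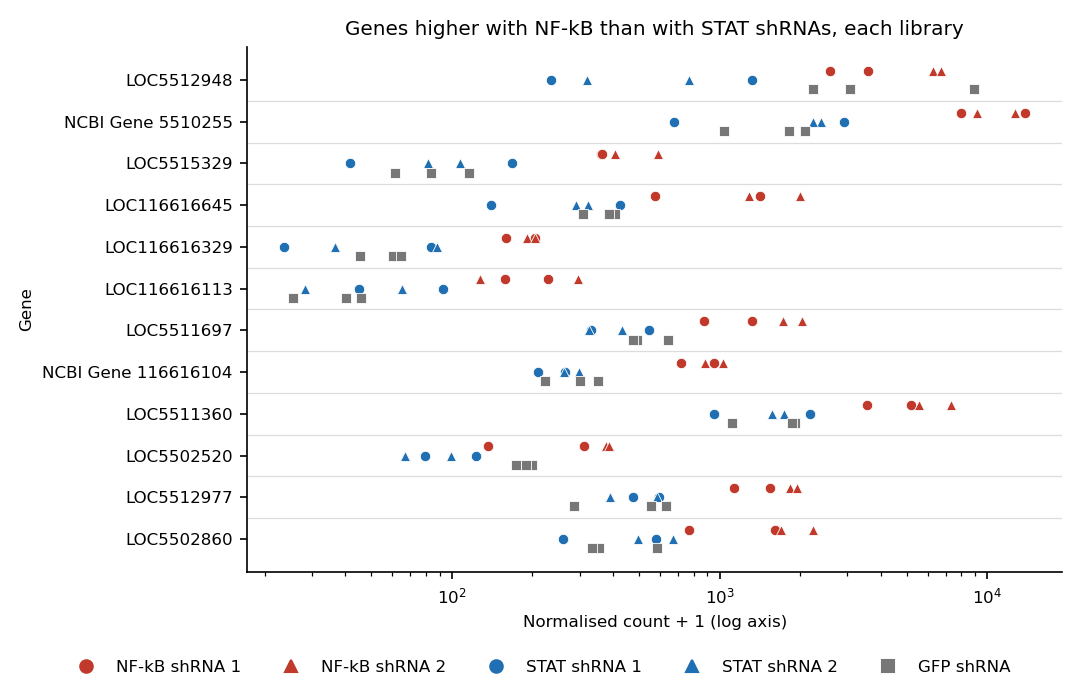
Normalised count plus 1 (log axis) of the 12 named genes that were higher with NF-kB than with STAT shRNAs, one point per library. Circles are shRNA 1 and triangles shRNA 2 of each target, squares are the 3 GFP shRNA libraries, and in every row the 4 red NF-kB points lie right of the 4 blue STAT points, while the GFP libraries lie within or near the STAT range except at LOC5512948 and LOC5502520.

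Among genes lower with NF-kB shRNAs, LOC116615369 had 49.2 and 103 normalised counts with NF-kB shRNA 1, 6.54 and 79.7 with NF-kB shRNA 2, 290 and 379 with STAT shRNA 1, and 427 and 525 with STAT shRNA 2. All NF-kB libraries lay far below all STAT libraries, and NF-kB shRNA 2 replicate 1 was the lowest by a wide margin. The difference was -3.23 (95% interval -4.34 to -2.13, adjusted p = 0.00381 by limma). LOC5508611 was the next in size, with 18.8, 29.7, 0 and 22 with NF-kB shRNAs and 70.7, 57.6, 90.3 and 183 with STAT shRNAs. Its difference of -3.08 (-4.6 to -1.55, adjusted p = 0.0371) became -1.95 (adjusted p = 0.0276) without the library listed at 0. The call was lost in 7 of the 11 fits that left out a library (without either NF-kB shRNA 1 library, any STAT library or GFP shRNA replicate 2, adjusted p up to 0.18), and the direction held in all 11. It was also lost with a pseudocount of 0.5, with robust moderation and with the compared groups alone.

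Several lower genes were separated by wide margins in all libraries. LOC116602286 had 97.9, 90.1, 24.4 and 54.4 normalised counts with NF-kB shRNAs and 315, 390, 315 and 399 with STAT shRNAs, a difference of -2.57 (-3.1 to -2.03, adjusted p = 0.000257 by limma). LOC5504089 had 78.9, 124, 24.6 and 86.7 against 372, 346, 397 and 469 (-2.52, adjusted p = 0.000769). LOC5511470 had 186, 250, 96.3 and 130 against 516, 725, 842 and 1222 (-2.34, adjusted p = 7.94e-05). The lowest STAT library of LOC5511470 held more than the highest NF-kB library (516 against 250). LOC5507571 had 318, 403, 147 and 349 against 1458, 1350, 1144 and 1205 (-2.17, adjusted p = 0.000678), and LOC5507634 had 261, 217, 129 and 334 against 566, 794, 1259 and 1702 (-2.15, adjusted p = 0.000488). In LOC5507634 the STAT shRNA 2 libraries stood above the STAT shRNA 1 libraries, a spread between hairpins that did not reach the NF-kB level.

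LOC5515806 had 21990 and 20247 normalised counts with NF-kB shRNA 1, 12326 and 26699 with NF-kB shRNA 2, 45014 and 83033 with STAT shRNA 1, and 98086 and 124964 with STAT shRNA 2. The NF-kB libraries averaged 20315 ± 5983 (SD, n = 4) and the STAT libraries 87774 ± 33369 (SD, n = 4), a difference of -2.07 (-2.62 to -1.52, adjusted p = 0.000769 by limma). In the other embryo experiment, whose table was normalised separately, this gene had 731 and 907 in untreated GFP shRNA embryos and 61673 and 53703 with 2'3'-cGAMP. LOC116604070 had 555, 305, 499 and 1064 against 2006, 1764, 2245 and 3791 (-2.09, adjusted p = 0.001), and LOC5503306 had 102, 75.2, 81.4 and 132 against 305, 304, 425 and 654 (-2.06, adjusted p = 0.000322).

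NCBI Gene 116614843 had 65.5, 40.9, 4.03 and 29.9 normalised counts with NF-kB shRNAs and 116, 85.7, 197 and 236 with STAT shRNAs (-2.53, adjusted p = 0.00953 by limma). NCBI Gene 5497149 had 51, 30.2, 23.8 and 69.1 against 157, 286, 156 and 237 (-2.31, adjusted p = 0.00271), and LOC116603942 had 54.2, 12.8, 20.5 and 38.8 against 108, 82.4, 131 and 197 (-2.13, adjusted p = 0.0177). NCBI Gene 116614843 was not called without STAT shRNA 2 replicate 2 (adjusted p = 0.0598). LOC116603942 was not called without NF-kB shRNA 2 replicate 1, STAT shRNA 1 replicate 1 or either STAT shRNA 2 library (adjusted p up to 0.11). NF-kB shRNA 2 replicate 1, the library with most genes at 0, was the lowest NF-kB library at 10 of these 13 lower genes and at 106 of all 251 lower genes (42.2%).

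**Figure D3:**
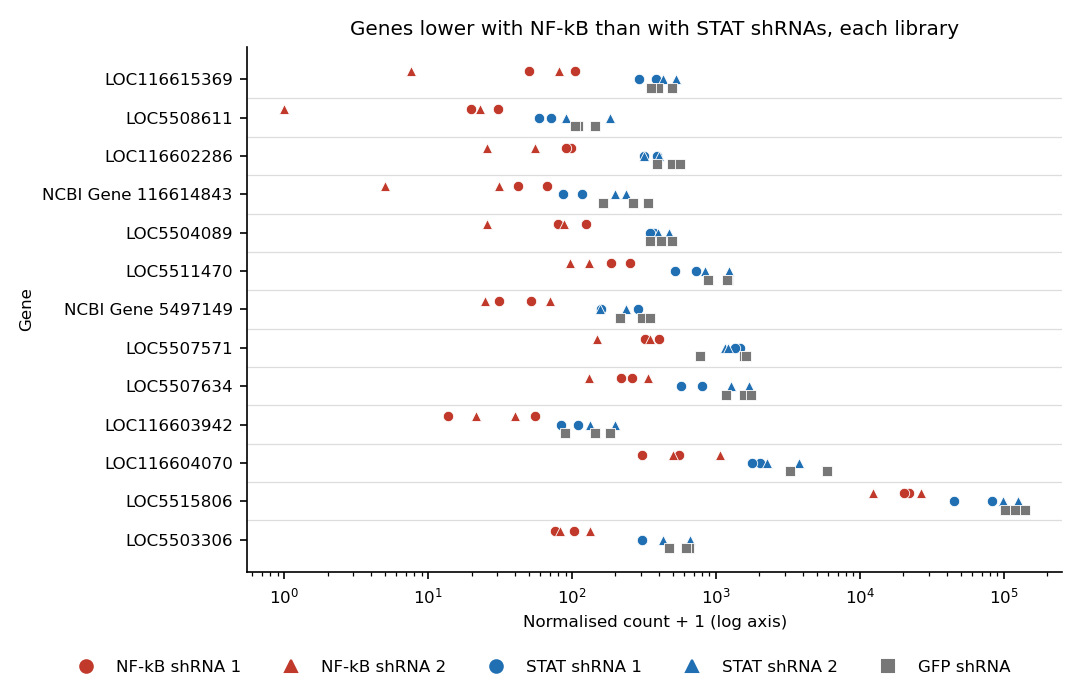
Normalised count plus 1 (log axis) of the 13 named genes that were lower with NF-kB than with STAT shRNAs, one point per library. Symbols are as in the plot of higher genes. The 4 red NF-kB points lie left of the 4 blue STAT points in every row, the lowest red triangle at LOC5508611 is a library listed at 0, and the GFP squares lie within or right of the STAT points except at LOC5507571, where 1 square lies between the groups.

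Other called genes were singled out after their values were seen. LOC5505764 shared the smallest adjusted p of the comparison, with 131, 150, 152 and 165 normalised counts with NF-kB shRNAs and 629, 548, 560 and 698 with STAT shRNAs (difference -2.02, 95% interval -2.37 to -1.67, adjusted p = 7.94e-05 by limma). The most negative difference of all, -4.48 (-6.81 to -2.14, adjusted p = 0.0487), belonged to NCBI Gene 116604866, which was listed at 0 in 3 NF-kB libraries and at 11.7 in the last. Its STAT libraries held 12.4, 42, 51.6 and 102, and 1 of the 3 GFP libraries held 1.21, so this gene was low or variable throughout, and 9 of 11 fits with a library left out did not call it. LOC5520478 was the only called gene at or above 2 that the naming rule passed over. It had 70.3, 24.8, 179 and 119 against 29, 14.9, 8.23 and 23.2, so that the groups overlapped (2.13, adjusted p = 0.0407), and it was lost in 8 of 11 fits.

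The GFP shRNA libraries show where the control level of these genes lay. Both targets were compared with the same 3 GFP libraries, so the values are given side by side without a test of their relation. Among the 251 lower genes the median difference from GFP was -1.2 with NF-kB shRNAs and -0.053 with STAT shRNAs. The mean of the GFP libraries lay closer to the STAT than to the NF-kB mean at all 251 of them. Among the 185 higher genes the GFP mean lay closer to the STAT mean at 151 and closer to the NF-kB mean at 34 (18.4%). The 151 genes had medians of 0.84 for NF-kB minus GFP and -5.3e-05 for STAT minus GFP. Their choice by the GFP mean fixes the STAT difference as the smaller one in size at each gene. Over all tested genes the GFP mean lay closer to the STAT mean at 60.5% and to the NF-kB mean at 39.5%. At 330 of the 436 called genes, 212 lower and 118 higher, the 3 GFP libraries were clear of all 4 NF-kB libraries on the STAT side. At these genes the GFP libraries overlapped the STAT libraries or lay beyond them. The reverse, GFP clear of the STAT libraries on the NF-kB side, and overlapping the NF-kB libraries or beyond them, held at 37, of which 35 were higher genes. Over all tested genes these counts were 2411 and 809.

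By their own tests in the same fit, 555 genes differed between NF-kB and GFP shRNAs (2.77% of the tested genes) and 1 gene between STAT and GFP shRNAs (0.00499%), where 1080 had an unadjusted p below 0.05. The former count was 221 without NF-kB shRNA 2 replicate 1 and 185 without GFP shRNA replicate 2, and the latter was 18 without STAT shRNA 1 replicate 2, 4 without GFP shRNA replicate 1 and 2 without NF-kB shRNA 1 replicate 2 or STAT shRNA 1 replicate 1. The named lower gene LOC116602286 differed from GFP by -2.99 with NF-kB shRNAs (adjusted p = 0.000127 by limma) and by -0.43 with STAT shRNAs (adjusted p = 0.877). LOC5515806 differed by -2.61 (adjusted p = 0.00026) and -0.54 (adjusted p = 0.877), and LOC116604070 by -3.14 (adjusted p = 0.000127) and -1.04 (adjusted p = 0.7). NCBI Gene 5510255 differed by 2.75 (adjusted p = 0.00136) and 0.19 (adjusted p = 0.973). A p that misses the threshold does not show equality with GFP. For STAT minus GFP, intervals extended by a median of 0.616 from the estimate.

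LOC5514869, the 1 gene called between STAT and GFP shRNAs, had 8294 and 7350 normalised counts with STAT shRNA 1 and 5839 and 4839 with STAT shRNA 2, but 20350, 24382 and 27499 in the GFP libraries. With NF-kB shRNAs it had 19630, 12476, 23213 and 25342. Each STAT library was thus lower than every other library of the table. The difference was -1.89 for STAT minus GFP (95% interval -2.27 to -1.51, adjusted p = 0.000774 by limma), -0.30 for NF-kB minus GFP (adjusted p = 0.454) and 1.60 for NF-kB minus STAT (1.24 to 1.95, adjusted p = 0.00031). Both of its calls held in all 11 fits that left out a library. The STAT gene could not be picked out, so whether LOC5514869 is that gene was not tested. In the other embryo experiment 2'3'-cGAMP raised LOC5514869 by 3.24 (adjusted p = 0.000842), and in polyps by 5.65 (adjusted p = 7.12e-09).

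LOC5512948, the gene with the largest difference in its direction, had 2232, 3070 and 8900 normalised counts in the GFP libraries, which overlapped the NF-kB range of 2578 to 6721 and exceeded the STAT maximum of 1319. STAT minus GFP was -2.91 for this gene (adjusted p = 0.296 by limma) and NF-kB minus GFP 0.17 (adjusted p = 0.907). LOC5502520 had 172, 198 and 189 with GFP, above its STAT libraries and within its NF-kB range. Among the 34 higher genes with GFP nearer to NF-kB, the median difference from GFP was -0.686 with STAT shRNAs and 0.228 with NF-kB shRNAs. Their choice by the GFP mean fixes the NF-kB difference as the smaller one in size. Of these 34 genes, 20 (58.8%) belonged to the genes raised by 2'3'-cGAMP, against 48 of the other 151 (31.8%), a difference that was not tested. None of these 34 genes except LOC5514869 was called between STAT and GFP shRNAs. The 4 of them with the smallest adjusted p after LOC5514869 were LOC116611559 (NF-kB minus STAT 1.47), LOC5510070 (1.19), LOC5520473 (1.58) and LOC5517492 (1.31), picked out after their values were seen. LOC5517492 had 4844, 3185, 5174 and 4989 with NF-kB shRNAs, 1353, 2211, 2310 and 1525 with STAT shRNAs and 2649, 3208 and 3641 with GFP. LOC5520473 had 813, 910, 1056 and 701 against 455, 297, 323 and 157, with 584, 522 and 702 for GFP. At both genes the GFP libraries lay above all STAT libraries and reached into the lower end of the NF-kB range. STAT minus GFP was -0.80 and -1.05, neither called (adjusted p = 0.645 for both by limma).

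The hairpins against one target were compared with each other to show the spread that a target's own reagents gave. Limma called 0 of 20058 genes between NF-kB shRNA 1 and 2 (0% of those tested), with 2329 at an unadjusted p below 0.05. It also called 0 between STAT shRNA 1 and 2 (0%), with 982 below 0.05. With 2 libraries against 2, the 95% intervals extended by a median of 0.806 from the estimate, so smaller hairpin differences were not detectable at most genes. These intervals are not adjusted over genes as the calls are, so larger differences could also go uncalled. LOC5508611, for example, differed by 2.36 between the NF-kB hairpins and was not called (adjusted p = 0.4 by limma). Leaving out a library leaves its hairpin with a single library, which is then assumed to vary like the other groups. Without NF-kB shRNA 2 replicate 2, when the library with most genes at 0 stood alone for its hairpin, 197 genes were called between the NF-kB hairpins, 194 of them higher with shRNA 1, and 12 were called without NF-kB shRNA 1 replicate 1 and 1 without NF-kB shRNA 2 replicate 1. Between the STAT hairpins, 33 genes were called without STAT shRNA 1 replicate 2 and 2 without STAT shRNA 1 replicate 1.

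Each of the 4 pairs of an NF-kB hairpin with a STAT hairpin called fewer genes than the 4 libraries against 4. NF-kB shRNA 1 differed from STAT shRNA 1 at 21 genes (0.105%) and from STAT shRNA 2 at 104 (0.518%). NF-kB shRNA 2 differed from STAT shRNA 1 at 213 (1.06%) and from STAT shRNA 2 at 247 (1.23%). These pairs share libraries and are not independent. All 185 higher genes and 249 of the 251 lower genes had the same sign in all 4 pairs, which their choice on the mean of the pairs favours. By size, the higher genes had medians of 0.719 and 0.715 with NF-kB shRNA 1 (against STAT shRNA 1 and 2) and of 1.03 and 1.02 with NF-kB shRNA 2. The lower genes had medians of -0.973 and -1.22 with NF-kB shRNA 1 and of -1.05 and -1.31 with NF-kB shRNA 2, so in this direction the larger values went with STAT shRNA 2. Among the 25 named genes, 54 of the 100 pair values were called.

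Differences between hairpins were visible at single named genes. NCBI Gene 116614843 differed between NF-kB shRNA 1 and 2 by 2.08 (95% interval 0.68 to 3.48), with 65.5 and 40.9 against 4.03 and 29.9 normalised counts. LOC116602286 differed between the NF-kB hairpins by 1.34 (0.581 to 2.09) and LOC5507634 between the STAT hairpins by -1.13 (-1.88 to -0.368). None of these was called between hairpins by limma after adjustment over all genes.

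Genes raised by 2'3'-cGAMP were found on both sides of the comparison, on each in a larger share than among all tested genes. The response was taken from the GFP shRNA embryos of the STING experiment (2 untreated and 2 treated libraries), which shares no library with the present comparison. There, 926 of 20879 tested genes (4.44%) were called higher with a log2 change of at least 1. All 926 were tested here. With NF-kB shRNAs 68 of them were higher than with STAT shRNAs and 84 were lower (7.34% and 9.07%, against 0.922% and 1.25% of all tested genes), and the libraries of the groups did not overlap at 235 (25.4%, against 6.92%). The median difference over the 926 genes was 0.031, with quartiles of -0.314 and 0.362, against -0.018, -0.308 and 0.203 over all tested genes. The raised genes thus spread to both sides, and their median stayed near 0. It was -0.086 without NF-kB shRNA 1 replicate 1, which turned its sign, and 0.149 without NF-kB shRNA 1 replicate 2. The list itself depended on the libraries that chose it. Without untreated GFP shRNA replicate 2 of the STING experiment it grew to 2276 genes, 2266 of them tested here, of which 82 were higher (3.62%) and 104 lower (4.59%), with a median of -0.002. Without any 1 of the other 3 libraries it held 623 to 669 genes, with 7.89 to 8.37% higher and 8.83 to 10.2% lower.

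Of the named higher genes, LOC5512948, LOC116616645, LOC5511360, LOC5512977, LOC5502860, LOC5502520, NCBI Gene 5510255 and NCBI Gene 116616104 were on this list. Of the named lower genes, LOC5507571, LOC5507634, LOC116604070, LOC5515806 and LOC5503306 were. LOC5511360 had 0 and 63.5 normalised counts in untreated GFP shRNA embryos of the other experiment and 907 and 926 after 2'3'-cGAMP. LOC116604070 had 0 and 22.4 and then 946 and 1128. Both rose with 2'3'-cGAMP there (adjusted p = 0.0143 and 0.00167 by limma), and they differed in opposite directions between the knockdowns, by 1.76 and -2.09. The counts on the list depended on single libraries. The 84 lower genes became 53 without NF-kB shRNA 2 replicate 1, STAT shRNA 2 replicate 1 or STAT shRNA 2 replicate 2. The 68 higher genes became 28, 26, 39, 35 and 27 without NF-kB shRNA 1 replicate 1, NF-kB shRNA 2 replicate 1, STAT shRNA 1 replicate 1, STAT shRNA 2 replicate 1 and STAT shRNA 2 replicate 2.

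The share of genes that differed changed with the size of the response. Of 7471 genes with a log2 response between -1 and 0, 18 were higher (0.241%) and 25 lower (0.335%) with NF-kB shRNAs. Of 1724 genes with a response between 1 and 2, 63 were higher (3.65%) and 51 lower (2.96%). Of the 357 genes with a response of at least 4, 16 were higher (4.48%) and 35 lower (9.8%). Lower genes outnumbered the higher ones in every class of response except that between 1 and 2, as they did over all tested genes (251 against 185). Between 2 and 3 there were 25 higher and 34 lower genes, and between 3 and 4 there were 14 and 17. Whether the splits differ between classes was not tested. With the list restricted to the 384 genes called with a response of at least 3, 25 were higher and 41 lower, and the median difference was -0.036.

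**Figure D4:**
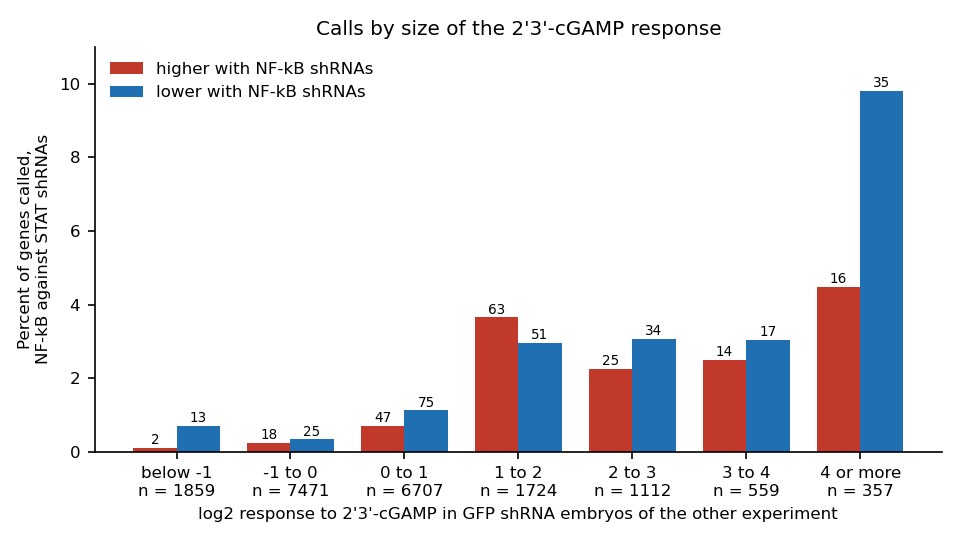
Percent of genes called between NF-kB and STAT shRNAs (vertical axis), grouped by the log2 response to 2'3'-cGAMP in GFP shRNA embryos of the other experiment (horizontal axis, with the number of genes per class). Red bars are genes higher with NF-kB shRNAs, blue bars lower, numbers above the bars are gene counts, and the blue bar reaches 9.8% at responses of 4 or more.

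The list of genes lowered by 2'3'-cGAMP held 255 genes of the same 20879 (1.22%), called lower with a log2 change of -1 or below, of which 250 were tested here. With NF-kB shRNAs 1 was higher and 6 were lower, together 2.8% against 2.17% of all tested genes. The median difference was -0.274 (quartiles -0.682 and 0.0297), but it moved between hairpins: NF-kB shRNA 1 and 2 differed by a median of 0.659, and the pairs with STAT shRNA 1 and 2 had medians of -0.113 and 0.163 for NF-kB shRNA 1 and of -0.8 and -0.385 for NF-kB shRNA 2. The count and the median moved with single libraries. The median was -0.124 without NF-kB shRNA 1 replicate 1 and -0.446 without NF-kB shRNA 1 replicate 2. The 6 lower genes became 15 without NF-kB shRNA 1 replicate 2, 2 without NF-kB shRNA 1 replicate 1, STAT shRNA 1 replicate 1 or STAT shRNA 2 replicate 1, and 3 without STAT shRNA 2 replicate 2.

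The same lists were followed library by library, as the median deviation of their genes from the mean of the 8 libraries. For the raised genes it was 0.0984, -0.356, 0.164 and 0.189 in the NF-kB libraries (shRNA 1 replicates 1 and 2, then shRNA 2 replicates 1 and 2) and -0.114, -0.123, 0.0811 and 0.119 in the STAT libraries. The GFP libraries lay at 0.115, 0.202 and -0.0115. NF-kB shRNA 1 replicate 2 was the lowest of all 11 libraries for the raised genes and, at 0.477, the highest for the lowered genes, where the other NF-kB libraries lay at -0.0918, -0.348 and -0.478 and the STAT libraries at 0.381, 0.227, 0.194 and -0.141. The groups overlapped in both lists. This library was also the one closest to the STAT level at most higher genes. Its part in those calls was examined by leaving it out: 193 higher and 194 lower genes were then called, in place of 185 and 251.

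**Figure D5:**
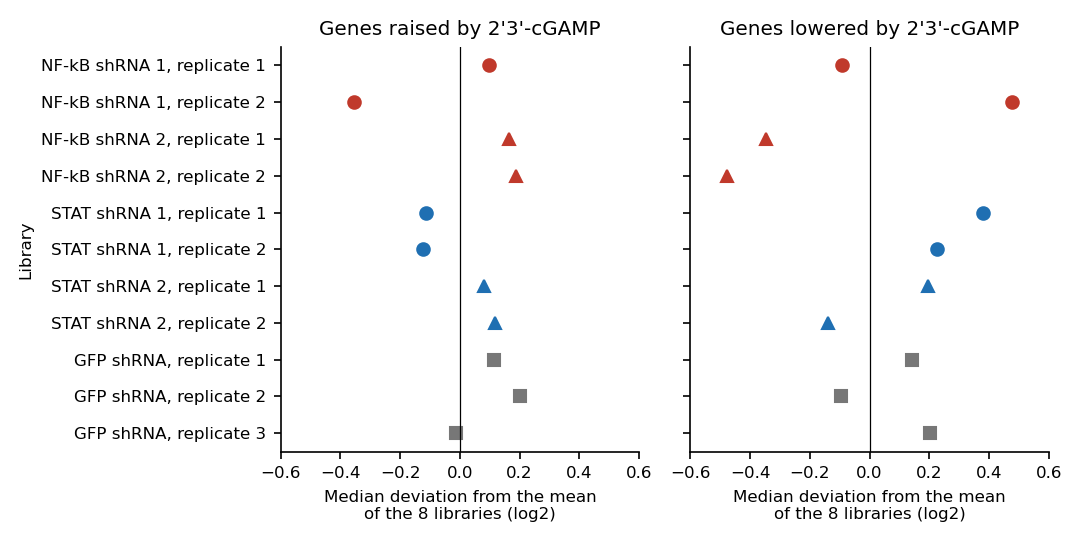
Median deviation (log2) of the 926 genes raised (left) and the 250 tested genes lowered (right) by 2'3'-cGAMP from the mean of the 8 compared libraries, one point per library. Circles are shRNA 1, triangles shRNA 2 and squares GFP; NF-kB shRNA 1 replicate 2 lies at -0.356 on the left and 0.477 on the right, apart from the other 3 NF-kB libraries in both panels.

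Responses in polyps and to other compounds, which did not enter the choice, described the called genes further. In GFP shRNA embryos of the STING experiment the median response to 2'3'-cGAMP was 1.33 for the 185 higher genes and 1.21 for the 250 lower genes measured there, against 0.036 for tested genes that were not called. In embryos with STING shRNAs the medians were 1.17 and 1.08, against 0.03. In polyps given 2'3'-cGAMP they were 2.14 in both directions, against -0.121, and 149 of 182 higher (81.9%) and 194 of 246 lower genes (78.9%) were called higher with 2'3'-cGAMP there, against 4842 of 17163 genes not called (28.2%). Polyps given c-di-AMP, 3'3'-cGAMP or c-di-GMP at the same dose and time gave medians between -0.0212 and 0.119 for these genes. With c-di-AMP 8 higher (4.4%) and 12 lower genes (4.88%) were called higher there, against 0.717% of genes not called. With 3'3'-cGAMP or c-di-GMP 0 of these genes were. With library totals made equal in those tables, the medians for higher, lower and not called genes were 1.05, 0.926 and -0.233 in GFP shRNA embryos, 0.856, 0.784 and -0.277 with STING shRNAs, and 0.987, 1.02 and -1.24 in polyps given 2'3'-cGAMP. The called genes of both directions stood above the genes not called under either scaling. The shares called, and the lists drawn from polyps below, are given with the deposited scaling alone.

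Lists drawn from polyps were read against the share of 2.17% called among all tested genes. Of 1089 genes raised by 2'3'-cGAMP in polyps by a log2 change of at least 3 (5.88% of 18511 tested), 1062 were tested in the embryos, with 58 higher and 93 lower with NF-kB shRNAs (14.2% called) and a median difference of -0.0055. Of the 143 genes called higher with c-di-AMP, where no minimum change was set (0.773%), 8 were higher and 12 lower (14% called), with a median of 0.042. Of 724 genes lowered by 2'3'-cGAMP in polyps by a log2 change of at least 3 in size, 651 were tested. Among them 0 were higher and 6 lower (0.922% called, a smaller share than among all tested genes). LOC116602286 is an example of a gene that was on no embryo list but responded in polyps. It had 17 and 14.2 normalised counts in untreated polyps and 4437 and 4776 with 2'3'-cGAMP (log2 change 8.12, adjusted p = 4.59e-09 by limma), whereas in embryos the response was 2.08 (adjusted p = 0.0582).

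Some called genes lay next to each other. In the order of protein-coding genes of the reference assembly jaNemVect1.1, 24 of 173 placed higher genes (13.9%) had another higher gene as direct neighbour, and 17 of 216 placed lower genes (7.87%) another lower gene. Of 15346 tested and placed genes, 302 (1.97%) had a higher and 367 (2.39%) a lower gene as neighbour. The pairs and runs numbered 12 among the higher genes and 8 among the lower genes, and 1 held more than a pair. That run, picked out after its values were seen, was LOC5509431, LOC5509442 and LOC5509430, all lower with NF-kB shRNAs and all raised by 2'3'-cGAMP in GFP shRNA embryos of the other experiment. LOC5509442 had 1962, 1714, 1918 and 2308 normalised counts with NF-kB shRNAs against 3523, 5689, 6089 and 5817 with STAT shRNAs (difference -1.39, adjusted p = 0.000367 by limma). LOC5509430 had 67.6, 67.8, 80.5 and 127 against 175, 249, 299 and 220 (-1.47, adjusted p = 0.00739), and was not called without STAT shRNA 2 replicate 1 (adjusted p = 0.0511). LOC5509431 had 7979, 6912, 7551 and 8595 against 10190, 10049, 13060 and 14647 (-0.61, adjusted p = 0.0218), and was lost in 6 of 11 fits with a library left out. Neighbours can be copies of one gene that share reads, and whether the counting kept these apart was not tested.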

How the data were processed

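Messenger RNA of whole embryos was sequenced in 11 libraries. The authors deposited one signal value per gene and library (normalized counts, per the labels). In the submitters' processing notes stand FastQC 0.11.9, kallisto 0.46.1 and DESeq2 (no version given), without role or order. The transcriptome build is not given in the sources used here. Values are not whole, so reads and read depth were not recovered, counting models were not used, and totals describe the scaled values.

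Values were analysed as log2(value + 1) with limma 3.58.1 in R 4.3.3. Of 22111 genes, the 20058 that reached 10 in 2 or more libraries were tested, with 5 group means in 1 fit and trended moderated variances. The contrast was the mean of both NF-kB hairpins minus the mean of both STAT hairpins. Tests were two-sided, with Benjamini-Hochberg adjustment across every tested gene. Differences are on the log2(value + 1) scale, which understates those of low genes. Fits of the STING experiment and of polyps were made alike and apart, and the script was tested on simulated data.

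Named genes were called genes with a mean of at least 50 over the 8 libraries and no overlap of the groups (364 genes). The rule took the 10 largest in each direction with a reference entry, at most 2 without, and the 5 largest in each direction among genes raised by 2'3'-cGAMP, which gave 25 genes. Of the tested genes, 77.1% matched the reference (assembly jaNemVect1.1) by gene ID. It gives no product names, so 18 pathway lists and 5 cell-type lists matched 0 genes, and no sequence was given. Members, lists and tests were chosen with earlier results of these data known.

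Same-numbered libraries deviated together weakly at most: the correlation of replicate 1 minus replicate 2 between groups ran from -0.012 to 0.13 over 10 pairs of groups, so no pairing was used. A correlation over all tested genes cannot show that no gene had a replicate effect. Alternatives covered the pseudocount, filter, scaling, moderation, array quality weights, groups in the fit, a replicate block, thresholds, hairpins and each library left out. Leaving out libraries for the comparisons with GFP, for list medians and for the list of raised genes, and equal totals in the other tables, were added after the data were seen.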

Additional observations from a re-analysis of the deposited data

Results flagged for a closer look

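Groups of 4 libraries were searched for a library far from the other 3, over the 25 named genes and 4 measures per library (58 groups). Chance flags about 1 group in 20 where groups are independent and unselected, or 2.9 of these 58, and 3 were found. The groups share libraries and the genes were chosen for no overlap, so this rate is a rough guide only. LOC5508611 was listed at 0 in NF-kB shRNA 2 replicate 1, against 18.8 to 29.7 normalised counts in the other NF-kB libraries. The share of genes listed at 0 was 10.9% in STAT shRNA 1 replicate 2, against 5.35 to 5.96% in the other STAT libraries. The median deviation of the genes raised by 2'3'-cGAMP was -0.356 in NF-kB shRNA 1 replicate 2, against 0.0984 to 0.189 in the other NF-kB libraries.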

How the results depend on the processing

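The count of 436 genes between NF-kB and STAT shRNAs ran from 409 without a filter to 498 with equal library totals over the pseudocounts, filters, scalings, moderation, weights and the compared groups alone, and 391 to 432 of the main calls were shared with each of these fits. It was 167 at an adjusted p below 0.01, 218 with an absolute log2 difference of at least 1, and 21, 104, 213 and 247 in the 4 pairs of hairpins. Only the GFP group had a replicate 3, and leaving out that library gave 575 genes without a block. With a replicate block, which the main fit did not use, the count was 736 and included all 436 main calls. The lower genes among those raised by 2'3'-cGAMP were then 132 in place of 84. In the main fit the 84 were 9.07% of the 926 genes. The count was 41 of 384 genes (10.7%) with the list restricted to a response of at least 3. With the c-di-AMP list it was 12 of 143 (8.39%). Leaving out a library gave 177 to 575 genes between NF-kB and STAT shRNAs, 53 to 111 lower genes among those raised, 0 to 197 between the NF-kB hairpins and 0 to 33 between the STAT hairpins. It gave 185 to 764 genes between NF-kB and GFP shRNAs (555 with all libraries) and 1 to 18 between STAT and GFP shRNAs. Drawing up the list of raised genes with equal totals gave 714 genes, of which 70 were lower (9.8%, against 9.07% of the 926 in the main list).

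Over 21 alternative settings (the hairpin pairs apart), 19 of the 25 named genes kept their call in all, 6 lost it in at least 1, and 0 changed direction. LOC5508611 was not called in 10 of the 21. Equal totals moved the median of all genes from -0.018 to -0.066 and the share of higher genes among those called from 42.4% to 34.9%. Read depth is unknown, so the precision of low values cannot be stated.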
